A study of Homo sapiens with 24 samples.

Results

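The transcripts described here are those of 10 genes, MELK, FOXM1, MYBL2, LIN9, LIN37, LIN52, LIN54, RBL1, RBL2 and E2F4. They were picked by symbol from the 20045 genes named in the probe list of the array, as reported targets of Siomycin A or as regulators of the same cell cycle genes. The array carried 13 probes for them, of which 12 were kept and are given separately. Siomycin A is a thiopeptide antibiotic that blocks the proteasome and is known to lower FOXM1 and MELK. It was given to PC3 and LNCaP, established lines of human prostate cancer cells, of which LNCaP depends on the androgen receptor and PC3 does not. Total RNA was read on Illumina bead arrays after 24 h and after 48 h. The 8 groups were PC3 Siomycin 24 h, PC3 DMSO 24 h, PC3 Siomycin 48 h, PC3 DMSO 48 h, LNCaP Siomycin 24 h, LNCaP DMSO 24 h, LNCaP Siomycin 48 h and LNCaP DMSO 48 h, with 3 arrays each and 24 in all. DMSO is the solvent of the compound. The dose stands as 0.5 µM in the treatment protocol and as 5 µM in the sample titles, so it is not settled here. Whether the 3 arrays of a group came from separate cultures is not stated, so p-values measure the spread between arrays, which may be technical.

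MELK is a serine/threonine kinase that dividing cells make in large amounts. The DREAM complex holds cell cycle genes silent in resting cells: a MuvB core of LIN9, LIN37, LIN52, LIN54 and RBBP4 joins a pocket protein, RBL1 (p107) or RBL2 (p130), and a repressor E2F such as E2F4. When cells enter the cycle, MuvB leaves the pocket protein and binds MYBL2 (B-MYB) and then FOXM1, which switch on the genes of G2 phase and mitosis, and FOXM1 and MYBL2 are themselves among the genes that DREAM silences.

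Mean intensity per array ran from 314.4 to 498.8 and the background centre from 97.67 to 116.4. From 17010 to 20101 of the 47318 probes exceeded background. Of the 24 arrays, 23 correlated best with an array of their own group. The exception, LNCaP DMSO 24 h array 1, was closest to LNCaP DMSO 48 h (r = 0.9893, against 0.9891 within its group). All 6 measured markers of LNCaP (KLK3, KLK2, TMPRSS2, SLC45A3, STEAP2 and FOLH1) and all 8 of PC3 (VIM, CAV1, CAV2, CD44, ANXA1, AXL, PLAU and CXCL8) separated the arrays of the lines. Of 5 markers of blood, endothelial or stromal cells, PTPRC and CD3E were above background on 0 arrays, COL1A1 on 9 PC3 and 6 LNCaP arrays, and PECAM1 on 9 PC3 arrays. VWF was above background on all 12 LNCaP arrays, at a log2 level of 4.39 ± 0.16 in PC3 and 6.76 ± 0.51 in LNCaP (SD, 12 arrays each), and its part in the differences between the lines was not tested. PC3 Siomycin 48 h array 3 was the dimmest, with 17010 probes above background. The groups themselves ranged from 17010 to 18096 such probes in PC3 Siomycin 48 h and from 18897 to 19031 in PC3 DMSO 48 h.

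The DNA just before the transcription start is where E2F4 and LIN54 are known to bind, E2F4 at E2F sites and LIN54 at the cell cycle homology region (CHR). RefSeq windows of the assembly GRCh38.p14, 250 bases before and 50 after a start, were found for 9 of the 10 genes (14 windows, FOXM1 had none). Printed below are the upstream 250 bases of 4 genes, with E2F and CHR letters in capitals and otherwise in lower case, each 5′ to 3′ on the strand of its gene. MELK and RBL1 are shown because both were lower after Siomycin A in both lines. RBL2 and LIN54 are shown because their 24 h estimates had opposite signs in the lines and differed between them in the test given below. At 24 h the effect on RBL2 did not pass in LNCaP, nor that on LIN54 in PC3.
MELK, chr9:36572645-36572894, plus strand: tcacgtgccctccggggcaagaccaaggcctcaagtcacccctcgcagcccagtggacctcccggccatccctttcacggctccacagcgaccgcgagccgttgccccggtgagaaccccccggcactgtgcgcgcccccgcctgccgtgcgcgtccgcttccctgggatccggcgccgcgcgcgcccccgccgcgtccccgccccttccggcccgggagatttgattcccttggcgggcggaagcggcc
RBL1, chr20:37095998-37096247, minus strand: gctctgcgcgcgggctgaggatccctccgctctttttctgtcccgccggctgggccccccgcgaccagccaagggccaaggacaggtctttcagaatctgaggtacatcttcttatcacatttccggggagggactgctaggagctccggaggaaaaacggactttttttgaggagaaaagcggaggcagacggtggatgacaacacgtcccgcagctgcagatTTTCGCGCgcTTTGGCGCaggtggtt
RBL2, first of 2 starts, chr16:53434221-53434470, plus strand: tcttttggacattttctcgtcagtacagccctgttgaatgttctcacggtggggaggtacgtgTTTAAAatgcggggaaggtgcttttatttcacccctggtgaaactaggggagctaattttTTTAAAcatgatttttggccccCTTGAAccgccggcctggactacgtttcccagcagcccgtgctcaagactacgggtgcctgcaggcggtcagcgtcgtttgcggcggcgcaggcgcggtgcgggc
LIN54, first of 2 starts, chr4:83010835-83011084, minus strand: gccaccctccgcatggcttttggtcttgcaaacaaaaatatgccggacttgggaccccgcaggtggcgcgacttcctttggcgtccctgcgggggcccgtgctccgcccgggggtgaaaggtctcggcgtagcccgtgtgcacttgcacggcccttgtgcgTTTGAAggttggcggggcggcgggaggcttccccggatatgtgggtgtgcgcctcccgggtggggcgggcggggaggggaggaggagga
The E2F letters searched, on both strands, were TTTCCCGC, TTTGGCGC, TTTCGCGC and TTTGCCGC. RBL1 held TTTCGCGC at position -26 and TTTGGCGC at position -16 relative to the start, and LIN52 held TTTCCCGC at position -25, while 3.31% of all 35116 windows held any of these. The CHR letters searched on either strand began with TTTGAA as the usual form. The first variant searched was TTCGAA in the same way. Another variant of the element searched was TTTAAA, which, like TTCGAA, reads alike on both strands. The remaining variant that was searched for was CTTGAA, and 32.2% of all windows held at least one of these. Among the members they stood in windows of LIN9, LIN37, LIN52, LIN54 and RBL2. CCAAT, often found near a CHR, was in 34.6% of all windows and in those of LIN37, LIN52 and RBL2. None of the E2F, CHR or CCAAT letters was found in the MELK window, which says only that these letters are not in it.

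Siomycin A lowered most of the 12 probes in LNCaP and fewer in PC3. A probe was called where its adjusted p in limma, over all 25215 kept probes, was under 0.05. In LNCaP at 24 h 7 of 12 member probes were lower (MELK and FOXM1 with both probes each, LIN9, LIN54 and RBL1) and 0 higher, against 7.00% lower and 7.06% higher of all probes. In LNCaP at 48 h 9 were lower and 1, RBL2, was higher, against 14.0% lower and 14.4% higher of all probes. In PC3 at 24 h 5 were lower (both MELK probes, FOXM1 ILMN_2344971, RBL1 and RBL2) and 0 higher, against 7.75% lower and 7.29% higher. In PC3 at 48 h 3 were lower (MELK ILMN_2212909, RBL1 and E2F4) and 0 higher, against 19.1% lower and 16.5% higher. This count of 3 lower lies near the share of all probes. The median log2 difference of the 12 probes was -0.36 at 24 h and -0.18 at 48 h in PC3, and -0.77 and -0.70 in LNCaP, beside medians between 0.000375 and 0.0173 over all probes. Since RNA was taken from whole cultures, less transcript in each cell cannot be told apart from fewer cells that hold it.

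The scale on which PC3 at 48 h is read matters for all its members. Centring each array on its median, in place of quantile normalization, moved the median difference of all probes by -0.121 there, and the calls over all probes were then 1367 higher and 6187 lower, against 4161 higher and 4826 lower. On that scale 6 member probes were lower in PC3 at 48 h: MELK ILMN_2212909, both FOXM1 probes (-0.64 and -0.66), RBL1, RBL2 (-0.59) and E2F4. In PC3 at 24 h the same change moved the median by 0.00605 and left 2 member probes called, MELK ILMN_1731184 and RBL1.

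**Figure D1:**
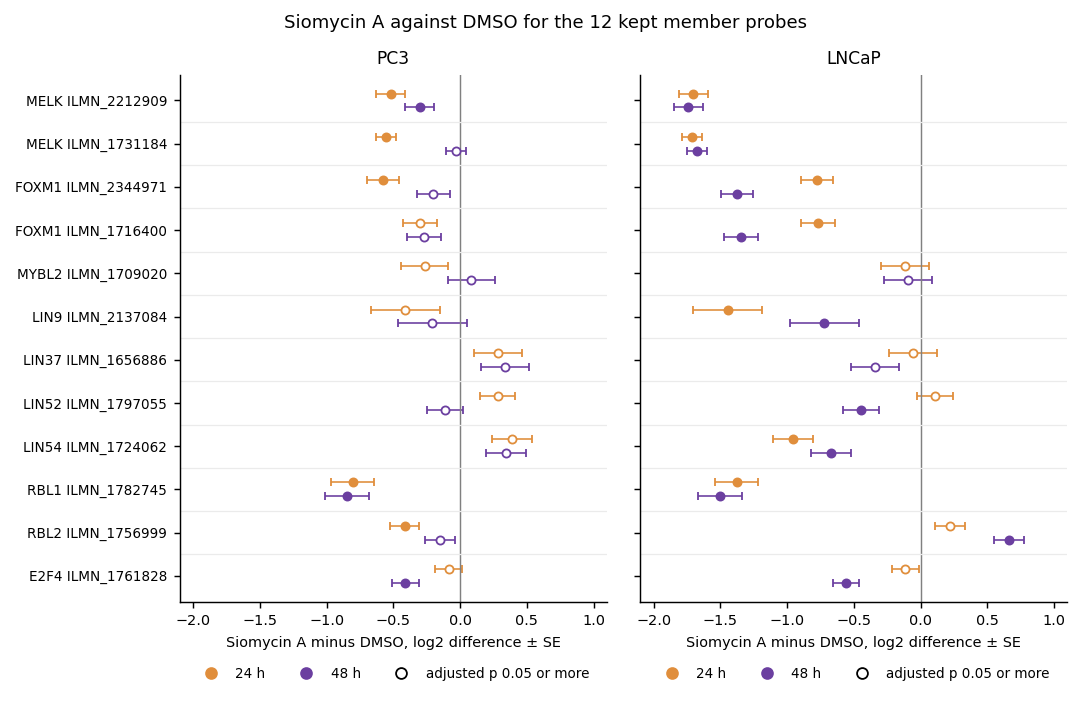
Log2 difference between Siomycin A and DMSO (x axis) for each of the 12 kept probes (y axis) in PC3 and LNCaP, at 24 h and 48 h. Points are estimates from 3 arrays against 3, bars the standard error, and filled points have an adjusted p under 0.05. MELK lies near -1.7 in LNCaP at both times, and RBL2 at 48 h in LNCaP is the only filled point right of zero.

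MELK fell after Siomycin A in both lines, and fell further in LNCaP. Probe ILMN_2212909 read 8.46, 8.82 and 8.80 (log2 intensity) on the LNCaP Siomycin 24 h arrays, against 10.47, 10.28 and 10.45 on the DMSO arrays. At 48 h it read 9.00, 8.69 and 8.90 on the Siomycin arrays, against 10.55, 10.66 and 10.60 on the DMSO arrays. All treated LNCaP arrays lay below all LNCaP DMSO arrays, with a wide gap. The difference was -1.70 ± 0.11 (SE) after 24 h (adjusted p = 8e-10), with -1.74 ± 0.11 after 48 h (adjusted p = 2.6e-10), or 3.26-fold and 3.34-fold lower. The other probe of the same RefSeq transcript, ILMN_1731184, gave -1.72 ± 0.08 and -1.68 ± 0.08 (adjusted p = 9.2e-12 and 5.3e-12).

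In PC3 the MELK decrease was smaller and, at 48 h, was called by ILMN_2212909 only. A difference between the 2 MELK probes was not tested. Probe ILMN_2212909 read 10.18, 10.16 and 9.95 on the PC3 Siomycin 24 h arrays, against 10.55, 10.73 and 10.57 with DMSO. At 48 h it read 9.72, 9.53 and 9.59 with Siomycin, against 9.90, 9.99 and 9.85 with DMSO. Treated and DMSO arrays did not overlap at either time. The differences were -0.52 ± 0.11 at 24 h (adjusted p = 0.002, and 0.095 with median centring) and -0.30 ± 0.11 at 48 h (adjusted p = 0.034, and -0.62 with median centring). The 48 h call was lost in 8 alternatives, among them without PC3 DMSO 48 h array 1 or 2 or without PC3 Siomycin 48 h array 2 or 3 (adjusted p between 0.066 and 0.12). Probe ILMN_1731184 read 9.36, 9.31 and 9.20 with Siomycin at 24 h, against 9.82, 9.91 and 9.82 with DMSO, a difference of -0.56 ± 0.08 (adjusted p = 3.4e-05). At 48 h it read 9.20, 9.12 and 9.11 against 9.15, 9.22 and 9.16, and these groups overlapped (-0.03 ± 0.08, adjusted p = 0.8). With median centring this 48 h difference came to -0.39 (adjusted p = 0.088). For this probe the PC3 effect differed between times by 0.53 ± 0.11 (adjusted p = 0.0016), which median centring reduced to 0.17 (adjusted p = 0.75).

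The Siomycin effect on MELK in PC3 minus that in LNCaP was 1.18 ± 0.15 after 24 h (adjusted p = 3.9e-05), with 1.44 ± 0.15 after 48 h (adjusted p = 3.8e-07) by ILMN_2212909. By ILMN_1731184 it was 1.16 ± 0.11 (adjusted p = 1e-06) and 1.65 ± 0.11 (adjusted p = 6.2e-10). A positive value means that the level fell less in PC3. These 4 differences kept their call under every alternative run, the use of the 24 h DMSO arrays as control at 48 h included (0.53 and 0.87).

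**Figure D2:**
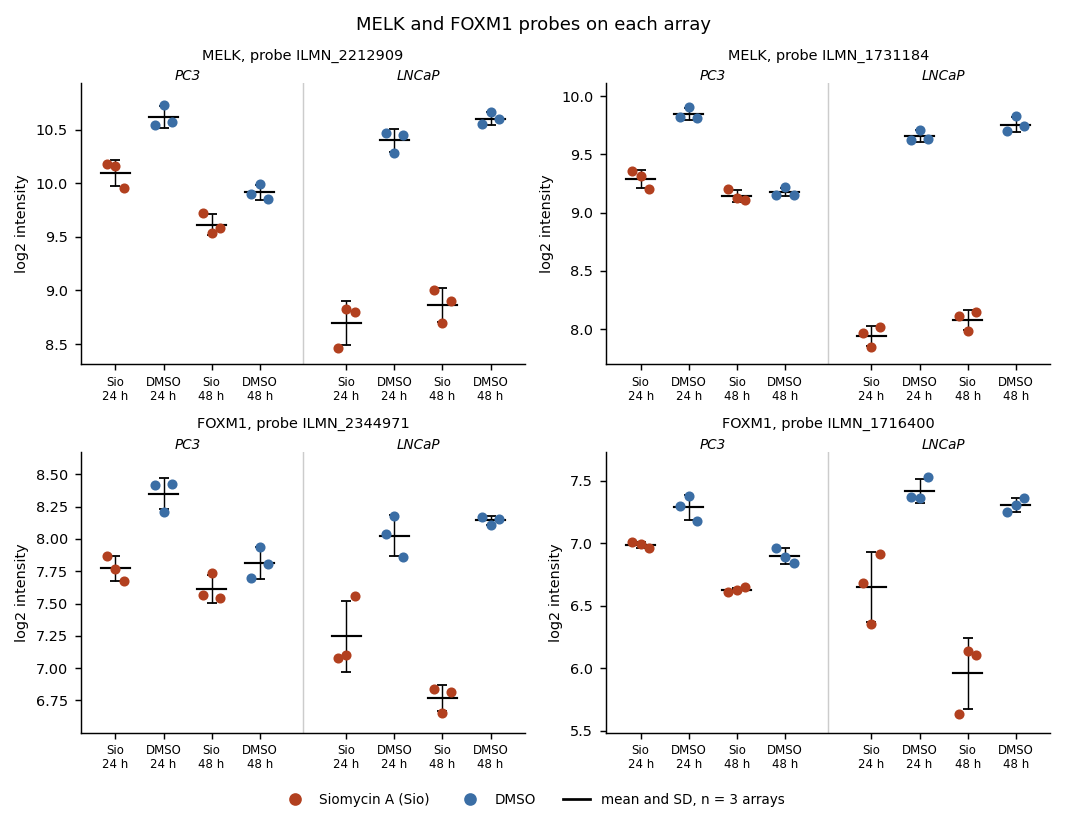
Log2 intensity (y axis) of the 2 MELK probes and the 2 FOXM1 probes on each array, by group (x axis), with Siomycin A in red and DMSO in blue. Points are single arrays, and bars show the mean and SD of 3 arrays. MELK in LNCaP drops by more than 1 log2 unit at both times, while FOXM1 in LNCaP is lowest at 48 h. Levels of different probes are not on a common scale.

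FOXM1, the forkhead factor that drives transcription of mitotic genes, fell in LNCaP at both times by both probes. Probe ILMN_2344971 read 7.08, 7.10 and 7.56 on the LNCaP Siomycin 24 h arrays, against 8.04, 8.17 and 7.86 with DMSO. At 48 h it read 6.84, 6.65 and 6.81 with Siomycin, against 8.17, 8.11 and 8.15 with DMSO. Treated and DMSO arrays were separate at both times, more widely at 48 h. The differences were -0.78 ± 0.12 (adjusted p = 0.0001) and -1.38 ± 0.12 (adjusted p = 2.9e-08), or 1.72-fold and 2.59-fold lower. Probe ILMN_1716400, annotated to another RefSeq transcript of the gene, gave -0.77 ± 0.13 (adjusted p = 0.00022) and -1.35 ± 0.13 (adjusted p = 8.4e-08). The step between the times in LNCaP was -0.60 ± 0.17 by ILMN_2344971 (adjusted p = 0.046) and -0.58 ± 0.18 by ILMN_1716400 (adjusted p = 0.072). That call was lost in 13 alternatives (adjusted p over all alternatives between 0.0089 and 0.34), 9 of which each left out 1 LNCaP array.

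In PC3 FOXM1 was called lower at 24 h by ILMN_2344971 only, and by neither probe at 48 h. A difference between the probes was not tested. ILMN_2344971 read 7.87, 7.77 and 7.67 with Siomycin at 24 h, against 8.42, 8.21 and 8.43 with DMSO, a difference of -0.58 ± 0.12 (adjusted p = 0.0021, and 0.053 with median centring). ILMN_1716400 read 7.01, 6.99 and 6.96 with Siomycin, against 7.30, 7.38 and 7.18 with DMSO, without overlap but also without a call (-0.30 ± 0.13, adjusted p = 0.14). At 48 h ILMN_2344971 read 7.56, 7.73 and 7.54 against 7.69, 7.94 and 7.81 (-0.20 ± 0.12, adjusted p = 0.22). ILMN_1716400 read 6.61, 6.62 and 6.65 against 6.97, 6.89 and 6.84 (-0.27 ± 0.13, adjusted p = 0.11). Neither passed at 48 h, and both passed with median centring. Between the lines the FOXM1 effect, PC3 minus LNCaP, was 1.18 ± 0.17 and 1.08 ± 0.18 at 48 h (adjusted p = 1.8e-05 and 9.3e-05), and 0.77 and 0.69 with median centring (adjusted p = 0.028 and 0.033). At 24 h it was 0.20 ± 0.17 and 0.47 ± 0.18 (adjusted p = 0.58 and 0.13), with 95% intervals from -0.16 to 0.56 and from 0.09 to 0.85.

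MYBL2, the B-MYB factor that takes MuvB over from the pocket proteins, could not be followed with its probe. ILMN_1709020 was above background on 4 of 24 arrays: 1 of PC3 Siomycin 24 h, 2 of PC3 DMSO 24 h and 1 of LNCaP DMSO 24 h. Its values lay between 4.54 and 5.43 on all arrays, and treated and DMSO arrays overlapped in all 4 comparisons. It passed no test in the 14 comparisons here. The lowest adjusted p was 0.064, for PC3 DMSO 48 h minus 24 h, which passed in 5 alternatives, among them without PC3 DMSO 48 h array 3 (adjusted p = 0.018), and no fold is given for a signal that is not well above background.

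RBL1, the pocket protein p107, fell in all 4 comparisons and kept these calls under every alternative run. Its kept probe ILMN_1782745 read 5.81, 5.72 and 6.11 on the PC3 Siomycin 24 h arrays, against 6.81, 6.45 and 6.81 with DMSO (-0.81 ± 0.16, adjusted p = 0.0016). At 48 h in PC3 it read 4.60, 4.87 and 4.52 with Siomycin, against 5.10, 5.82 and 5.61 with DMSO (adjusted p = 0.00031). In LNCaP it read 5.02, 4.72 and 4.88 with Siomycin at 24 h, against 6.11, 6.40 and 6.25 with DMSO (adjusted p = 3.8e-06), and 4.72, 4.91 and 4.63 at 48 h, against 6.40, 6.28 and 6.10 (adjusted p = 5.2e-07). Treated and DMSO arrays did not overlap in any of these. The probe was above background on 0 of 3 arrays in PC3 Siomycin 48 h, LNCaP Siomycin 24 h and LNCaP Siomycin 48 h, so only bounds can be given there. It was at least 1.64-fold lower in PC3 at 48 h, at least 2.54-fold lower in LNCaP at 24 h and at least 2.68-fold lower in LNCaP at 48 h, against the dimmest signal above background on each array or its own signal where higher. The fitted line difference at 48 h, 0.66 ± 0.23 (adjusted p = 0.035), rests on those dim groups, was lost in 12 alternatives, 6 of which each left out 1 array (PC3 DMSO 48 h array 1, PC3 Siomycin 48 h array 2, LNCaP DMSO 48 h array 1 or 2, LNCaP Siomycin 48 h array 1 or 3), and turned to -0.53 (adjusted p = 0.1) with the 24 h DMSO arrays as control. A further RBL1 probe, ILMN_1753013, was above background on 0 arrays and was not kept.

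RBL2, the pocket protein p130 that is known to dominate DREAM in resting cells, rose in LNCaP at 48 h and was lower in PC3 at 24 h. In LNCaP at 48 h it read 10.00, 9.96 and 9.98 with Siomycin, against 9.24, 9.36 and 9.36 with DMSO. All treated arrays lay above the DMSO arrays, and RBL2 rose by 0.66 ± 0.11 (adjusted p = 9.5e-05), or 1.58-fold. At 24 h the LNCaP values were 9.76, 9.44 and 9.66 with Siomycin against 9.24, 9.55 and 9.41 with DMSO, which overlapped (0.22 ± 0.11, adjusted p = 0.22). In PC3 it read 7.84, 7.63 and 7.70 with Siomycin at 24 h, against 8.09, 8.28 and 8.04 with DMSO (-0.42 ± 0.11, adjusted p = 0.013). That decrease did not pass without PC3 DMSO 24 h array 2 (adjusted p = 0.077), without PC3 Siomycin 24 h array 2 (adjusted p = 0.066) or with median centring (adjusted p = 0.21). At 48 h PC3 read 7.92, 7.98 and 7.61 with Siomycin against 7.97, 8.05 and 7.95 with DMSO (-0.15 ± 0.11, adjusted p = 0.33). The difference of the effects, PC3 minus LNCaP, was -0.64 ± 0.16 after 24 h (adjusted p = 0.013), with -0.81 ± 0.16 after 48 h (adjusted p = 0.00037). The 24 h difference did not pass with median centring (adjusted p = 0.28) or where only the groups compared were fitted (adjusted p = 0.06).

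E2F4, the E2F of the repressor complex, fell at 48 h in both lines. It read 8.71, 8.55 and 8.46 in PC3 with Siomycin, against 9.06, 8.92 and 8.98 with DMSO (-0.41 ± 0.10, adjusted p = 0.0024). In LNCaP it read 8.02, 8.09 and 8.05 with Siomycin, against 8.57, 8.63 and 8.64 with DMSO (-0.56 ± 0.10, adjusted p = 0.00018). The groups were separate in both. With median centring the PC3 difference at 48 h came to -0.79 (adjusted p = 0.0005), and the effect in PC3 then differed between the times (-0.70, adjusted p = 0.048), which it did not on the main scale (-0.32, adjusted p = 0.13). In LNCaP the effect at 48 h minus that at 24 h was -0.44 ± 0.14 on the main scale (adjusted p = 0.075). This LNCaP difference passed in 5 alternatives (adjusted p down to 0.024). At 24 h the arrays overlapped in both lines (-0.09 ± 0.10 in PC3 and -0.11 ± 0.10 in LNCaP, adjusted p = 0.68 and 0.53). The lines did not pass the test of a difference at 48 h, with an estimate of 0.15 and a 95% interval from -0.14 to 0.44.

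**Figure D3:**
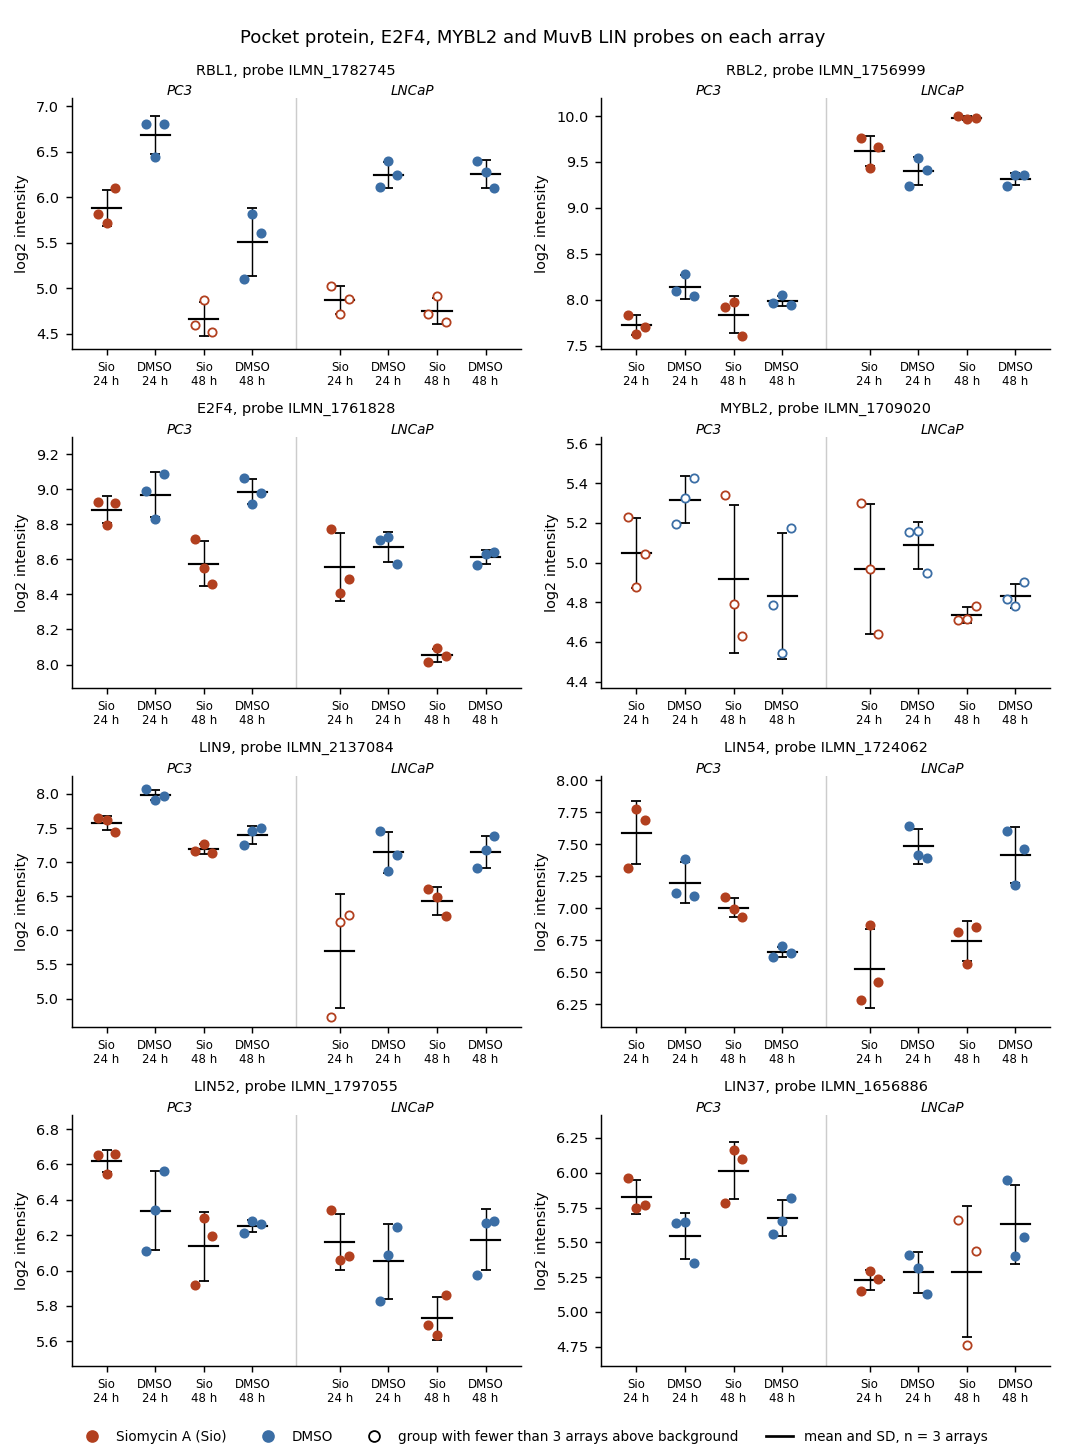
Log2 intensity (y axis) of the probes of RBL1, RBL2, E2F4, MYBL2, LIN9, LIN54, LIN52 and LIN37 on each array, by group (x axis), with Siomycin A in red and DMSO in blue. Points are single arrays, hollow where fewer than 3 arrays of the group were above background, and bars show the mean and SD of 3 arrays. RBL1 is hollow in 3 of the 4 Siomycin groups, RBL2 lies above 9 in LNCaP and below 8.5 in PC3, and LIN54 is higher with Siomycin in PC3 means and lower in LNCaP.

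Of the MuvB core, LIN54, the subunit that binds CHR DNA, fell in LNCaP. It read 6.29, 6.87 and 6.43 with Siomycin at 24 h, against 7.64, 7.41 and 7.40 with DMSO (-0.96 ± 0.15, adjusted p = 0.00011). At 48 h it read 6.82, 6.57 and 6.85 with Siomycin, against 7.60, 7.18 and 7.46 with DMSO (-0.67 ± 0.15, adjusted p = 0.0017). Treated arrays lay below DMSO arrays at both times. In PC3 the estimates were positive and did not pass: 7.31, 7.77 and 7.69 against 7.12, 7.38 and 7.10 at 24 h (0.39 ± 0.15, adjusted p = 0.091), and 7.09, 7.00 and 6.93 against 6.62, 6.70 and 6.65 at 48 h (0.35 ± 0.15, adjusted p = 0.08, 0.028 where only the groups compared were fitted, and -0.08 with median centring). Without PC3 Siomycin 24 h array 1, the lowest of its group, the 24 h value passed (0.53, adjusted p = 0.029). It also passed with no background correction and in the authors' processed values (0.25, adjusted p = 0.041 in each). With only probes above background on all arrays, both PC3 values passed (adjusted p = 0.041 at 24 h and 0.043 at 48 h). The effect in PC3 minus that in LNCaP was 1.35 ± 0.21 after 24 h (adjusted p = 0.0003), with 1.02 ± 0.21 after 48 h (adjusted p = 0.0008). The 48 h difference came to 0.62 (adjusted p = 0.12) with median centring and to 0.55 (adjusted p = 0.063) against the 24 h DMSO arrays.

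LIN9, a scaffold subunit of MuvB, fell in LNCaP by an amount that 1 array enlarged. It read 4.73, 6.13 and 6.23 with Siomycin at 24 h, against 7.45, 6.86 and 7.11 with DMSO (-1.45 ± 0.26, adjusted p = 0.00047). The lowest of these, array 1, was below background, and the other arrays also lay under every DMSO array. The call held without it, and its adjusted p over the alternatives ran from 1e-05 to 0.094, the highest where only the groups compared were fitted. At 48 h LIN9 read 6.61, 6.49 and 6.21 with Siomycin, against 6.91, 7.17 and 7.38 with DMSO (-0.72 ± 0.26, adjusted p = 0.042). This second call was lost in 8 alternatives, including without LNCaP DMSO 48 h array 2 or 3 and without any single LNCaP Siomycin 48 h array (adjusted p up to 0.15). In PC3 LIN9 was at -0.41 ± 0.26 at 24 h and -0.21 ± 0.26 at 48 h (adjusted p = 0.37 and 0.6, and 0.03 at 24 h where only the groups compared were fitted), with separate arrays at 24 h and overlapping ones at 48 h.

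LIN52, which DYRK1A phosphorylates to tie MuvB to the pocket proteins, fell in LNCaP at 48 h. It read 5.69, 5.63 and 5.86 with Siomycin, against 5.97, 6.27 and 6.28 with DMSO (-0.45 ± 0.13, adjusted p = 0.015). The call did not survive without LNCaP DMSO 48 h array 2 or 3, without LNCaP Siomycin 48 h array 2 (adjusted p between 0.062 and 0.066) or with median centring (adjusted p = 0.075). It was also lost with no background correction and in the authors' processed values (-0.18, adjusted p = 0.051 in each). Against the 24 h DMSO arrays the value was -0.32 (adjusted p = 0.079). In the other comparisons LIN52 was at 0.28 and -0.11 in PC3 and at 0.11 in LNCaP at 24 h, and none of these passed. LIN37, a subunit needed for repression by DREAM, passed in none of the 4 comparisons, with differences of 0.28 and 0.34 in PC3 and of -0.06 and -0.34 in LNCaP, of which the last passed without LNCaP Siomycin 48 h array 1 (-0.53, adjusted p = 0.041). Its effect differed between the lines at 48 h by 0.68 ± 0.26 (adjusted p = 0.048). One LNCaP Siomycin 48 h array of LIN37, at 4.76, was below background, and without that array the difference came to 0.41 (adjusted p = 0.15). The call was also lost without PC3 DMSO 48 h array 1 or 2, PC3 Siomycin 48 h array 2 or 3, or LNCaP DMSO 48 h array 1 or 3 (adjusted p between 0.057 and 0.14), and with median centring (0.38, adjusted p = 0.36).

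Set side by side over all members, the Siomycin effect differed between PC3 and LNCaP for 4 of 12 probes at 24 h, against 8.52% of all probes, and for 8 of 12 at 48 h, against 32.5% of all probes. At 24 h these were both MELK probes, LIN54 and RBL2. At 48 h both FOXM1 probes, LIN37 and RBL1 joined them. All but RBL2 were less negative or more positive in PC3. Between the times the effect differed for 1 of 12 probes in PC3 (MELK ILMN_1731184), against 17.6% of all probes, and for 1 in LNCaP (FOXM1 ILMN_2344971), against 5.16%. The split of all calls moved with median centring, to 1579 higher and 4520 lower against 3812 and 4373 for the line difference at 48 h, and to 381 and 3122 against 1869 and 2568 for the time difference in PC3.

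**Figure D4:**
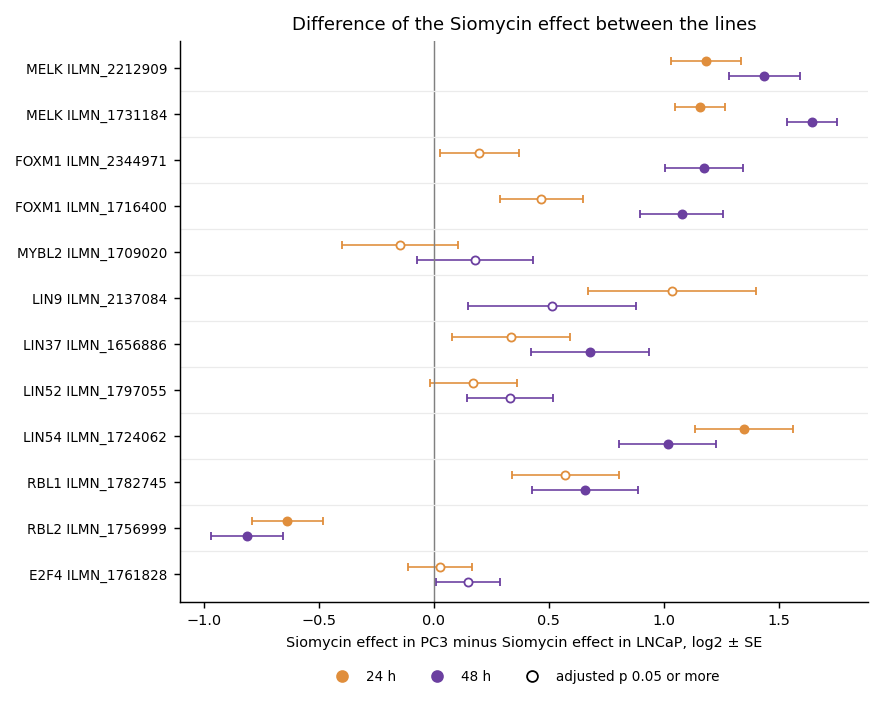
Siomycin effect in PC3 minus Siomycin effect in LNCaP (x axis, log2) for each of the 12 probes (y axis) at 24 h and 48 h. Points are estimates over 12 arrays, bars the standard error, and filled points have an adjusted p under 0.05. MELK and LIN54 lie right of 1 at both times, FOXM1 only at 48 h, and RBL2 lies left of zero.

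The 48 h comparison in PC3 was made against DMSO cultures that had themselves changed. In PC3 DMSO, 48 h minus 24 h, 6 of 12 member probes were lower and 0 higher, against 20.0% of all probes called in either direction. MELK fell by 0.70 ± 0.11 and by 0.67 ± 0.08 with its probes ILMN_2212909 and ILMN_1731184 (adjusted p = 7.3e-05 and 1.9e-06). FOXM1 fell by 0.54 ± 0.12 and 0.39 ± 0.13 (adjusted p = 0.0026 and 0.035), LIN54 by 0.54 ± 0.15 (adjusted p = 0.013) and RBL1 by 1.18 ± 0.16 (adjusted p = 2.3e-05). The call of FOXM1 ILMN_1716400 was lost without PC3 DMSO 24 h array 1 or 2 or any single PC3 DMSO 48 h array (adjusted p between 0.055 and 0.13), and that of LIN54 without PC3 DMSO 24 h array 2 (adjusted p = 0.076). In PC3 with Siomycin, 48 h minus 24 h, 6 of 12 were also lower, against 30.8% of all probes: MELK ILMN_2212909, FOXM1 ILMN_1716400, LIN52, LIN54, RBL1 and E2F4. FOXM1 ILMN_1716400 lost this call without any single array of the 2 groups (adjusted p between 0.07 and 0.091), LIN52 without Siomycin 48 h array 1 (adjusted p = 0.057), and E2F4 without Siomycin 24 h array 1 or 3 or Siomycin 48 h array 2 or 3 (adjusted p between 0.059 and 0.1). E2F4 also lost it where only the groups compared were fitted (adjusted p = 0.072). With median centring MELK ILMN_1731184, FOXM1 ILMN_2344971, LIN9 and RBL2 were called lower as well in PC3 with Siomycin, at values between -0.53 and -1.03, and LIN9 (-0.80) and the dim MYBL2 probe in PC3 DMSO. With median centring the calls over all probes turned to 696 higher and 3091 lower against 2475 and 2561 for DMSO, and to 551 and 8833 against 3411 and 4354 for Siomycin.

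The LNCaP DMSO cultures showed no such change in the members. In LNCaP DMSO, 48 h minus 24 h, limma called 0 of 12 member probes, and 0 had an unadjusted p under 0.05, against 0.202% of all probes called. In LNCaP with Siomycin 5 of 12 were called between the times, against 14.4% of all probes: both FOXM1 probes, LIN52 and E2F4 lower at 48 h and RBL2 higher by 0.36 ± 0.11 (adjusted p = 0.032). The RBL2 call was lost without LNCaP Siomycin 24 h array 2 or 3 or any single Siomycin 48 h array (adjusted p between 0.054 and 0.14). LIN52 lost its call without Siomycin 24 h array 1 or Siomycin 48 h array 1 or 2 (adjusted p between 0.097 and 0.13), and FOXM1 ILMN_2344971 without Siomycin 24 h array 3 or Siomycin 48 h array 2 (adjusted p = 0.069 and 0.054). Where only the groups compared were fitted, none of the 5 passed (adjusted p between 0.099 and 0.18), and with median centring FOXM1 ILMN_2344971, LIN52 and RBL2 did not (adjusted p = 0.062, 0.092 and 0.48). Median centring moved the calls over all probes to 0 higher and 3 lower against 25 and 26 for DMSO, and to 479 and 972 against 1799 and 1821 for Siomycin. Set against the 24 h DMSO arrays, a control chosen with the PC3 change known, PC3 Siomycin at 48 h gave 8 member probes lower and 1 higher. MELK came to -1.00 and -0.71, FOXM1 to -0.74 and -0.66, LIN9 to -0.79, RBL2 to -0.30 and LIN37 to 0.47 (adjusted p between 2.5e-07 and 0.047). This contrast holds the time in culture as well as the compound. The share of all probes called in it is not given here, so the count is not read as particular to the members.

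Without the compound, the lines differed most in RBL2. In DMSO at 24 h its level in PC3 was 2.40-fold lower than in LNCaP (log2 difference -1.26 ± 0.11, adjusted p = 3.7e-09), and at 48 h 2.51-fold lower (-1.33 ± 0.11, adjusted p = 1.5e-09). At 24 h 6 of 12 probes differed between PC3 and LNCaP, against 49.9% of all probes, and at 48 h 8 of 12, against 51.6%. The 24 h count lies at the share of all probes, and the 48 h count near it. MELK was lower in PC3 at 48 h, at -0.69 ± 0.11 by ILMN_2212909 and -0.58 ± 0.08 by ILMN_1731184 (adjusted p = 1.4e-05 and 1.4e-06). At 24 h the estimates were positive, at 0.22 ± 0.11 (adjusted p = 0.11) and 0.19 ± 0.08 (adjusted p = 0.042), and the second did not pass with median centring (adjusted p = 0.1), without a filter (0.057) or where only the groups compared were fitted (0.11). The FOXM1 probes had estimates of opposite sign at 24 h, at 0.33 ± 0.12 by ILMN_2344971 and -0.13 ± 0.13 by ILMN_1716400 (adjusted p = 0.029 and 0.44). The mean of both was 0.10 (adjusted p = 0.4). At 48 h both were lower in PC3, at -0.33 ± 0.12 and -0.41 ± 0.13 (adjusted p = 0.026 and 0.01), and neither passed with median centring (adjusted p = 0.27 and 0.14). RBL1 showed 0.44 ± 0.16 and -0.75 ± 0.16 (adjusted p = 0.032 and 0.00056). LIN9 was at 0.84 ± 0.26 at 24 h and 0.24 ± 0.26 at 48 h (adjusted p = 0.0096 and 0.47). For LIN54 the values were -0.29 ± 0.15 and -0.76 ± 0.15 (adjusted p = 0.13 and 0.00021). E2F4 was higher in PC3 at both times, by 0.30 ± 0.10 and 0.37 ± 0.10 (adjusted p = 0.016 and 0.003, and 0.069 at 48 h with median centring). Where only the groups compared were fitted, the 24 h values of FOXM1 ILMN_2344971 and E2F4 did not pass (adjusted p = 0.057 and 0.052), and without a filter that of RBL1 did not (adjusted p = 0.053). Apart from RBL2, the 24 h calls were each lost without at least 1 array. These were PC3 DMSO array 1, 2 or 3 or LNCaP DMSO array 1 or 3 for MELK ILMN_1731184, and PC3 DMSO array 1 or 3 or LNCaP DMSO array 1 or 3 for FOXM1 ILMN_2344971 and for RBL1. They were PC3 DMSO array 3 or LNCaP DMSO array 3 for E2F4 and LNCaP DMSO array 2 for LIN9 (adjusted p over these between 0.052 and 0.14). At 48 h FOXM1 ILMN_2344971 lost its call without PC3 DMSO array 1 or 3 or LNCaP DMSO array 1 or 3 (adjusted p between 0.058 and 0.11).

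The order of the 8 groups, read within a probe, differed between members. For MELK ILMN_2212909, PC3 DMSO 24 h (10.62 ± 0.10, SD) and LNCaP DMSO 48 h (10.60 ± 0.06) were highest and overlapped, followed by LNCaP DMSO 24 h (10.40 ± 0.11), PC3 Siomycin 24 h (10.10 ± 0.12) and PC3 DMSO 48 h (9.92 ± 0.07), of which the last 2 overlapped. PC3 Siomycin 48 h (9.61 ± 0.10) stood apart, and LNCaP Siomycin 48 h (8.86 ± 0.16) and 24 h (8.69 ± 0.20) were lowest and overlapped. For RBL1 the highest group was PC3 DMSO 24 h (6.69 ± 0.21), and the 3 Siomycin groups below background closed the order. For RBL2 the 4 LNCaP groups (9.32 to 9.98) all stood above the 4 PC3 groups (7.72 to 8.14), whose neighbours overlapped one another. For LIN37 and LIN52 every group overlapped the next in order.

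**Figure D5:**
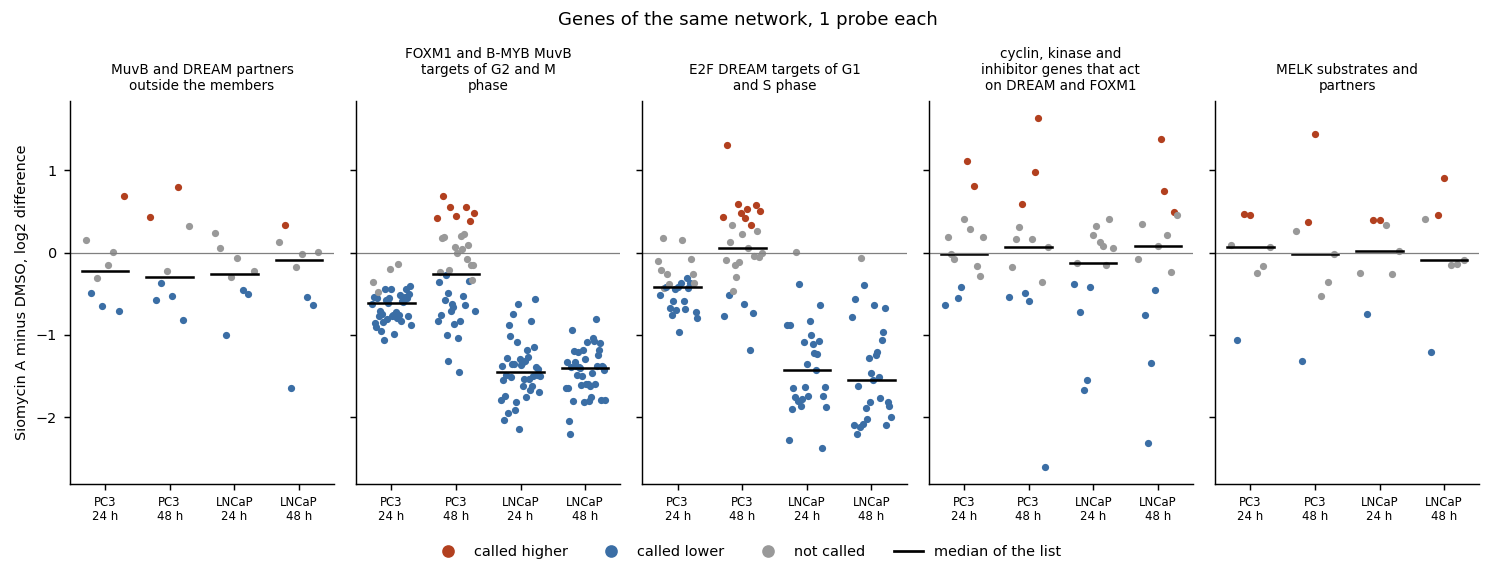
Log2 difference between Siomycin A and DMSO (y axis) of the genes in 5 lists, by line and time (x axis). Each point is 1 gene (1 probe), red where called higher, blue where called lower and grey where not called, and the black line is the median. Both target lists lie almost wholly below zero in LNCaP, and spread to both sides of it in PC3 at 48 h.

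Genes that FOXM1, B-MYB and MuvB are known to drive in G2 phase and mitosis fell in LNCaP at both times, and most of them fell in PC3 at 24 h. Here each gene is represented by 1 probe, and the lists and the members were chosen with earlier results of these data known. Shares of all genes are on the main scale, and shares of genes with median centring are not given. In LNCaP 40 of 40 such genes were lower at 24 h (median -1.45) and 40 of 40 at 48 h (median -1.40), beside 9.15% and 17.3% lower among all 13344 genes (8.85% and 17.7% higher), whose medians were 0.02 and 0.01. CKAP2L, a spindle protein, was at -2.15 ± 0.10 at 24 h, the mitotic kinase AURKB at -2.03 ± 0.14 and -2.04 ± 0.14, and the survival and spindle protein BIRC5 at -2.20 ± 0.10 at 48 h. In PC3 36 of 40 were lower at 24 h (median -0.62) and 0 higher, beside 10.3% lower and 9.55% higher among all genes, and with median centring 23 were lower. The CDK phosphatase CDC25B was at -1.07 ± 0.09 and GTSE1, a microtubule protein, at -0.99 ± 0.08. In PC3 at 48 h 19 were lower and 7 higher (median -0.26), beside 25.1% lower and 18.2% higher, and with median centring 25 were lower and 0 higher. The 7 higher lie near the share of all genes. HMMR, a spindle protein, was at -1.46 ± 0.10 and CDC25B at -1.32 ± 0.09, while the checkpoint kinase BUB1B was at 0.68 ± 0.17 and CDK1 at 0.55 ± 0.13. These are read against DMSO arrays that had themselves changed. In PC3 DMSO, 48 h minus 24 h, 39 of the 40 were lower (median -0.79) and 0 higher, beside 20.0% of all probes called in either direction. Against the 24 h DMSO arrays 39 of 40 were lower in PC3 at 48 h. That contrast also holds the time in culture, and its share of all genes is not given here.

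Targets of E2F and DREAM in G1 and S phase, of which 27 of 30 were measured, mostly fell in LNCaP and gave calls in both directions in PC3 at 48 h. In LNCaP 26 of 27 fell at each time (medians -1.43 and -1.55), with the exception of E2F1 (0.01 and -0.07). Among all genes 9.15% were lower in LNCaP at 24 h and 17.3% at 48 h. RRM2, a subunit of ribonucleotide reductase, was at -2.37 ± 0.18 at 24 h and the licensing factor CDT1 at -2.20 ± 0.21 at 48 h. The replication factor CDC45 was at -2.28 ± 0.17 at 24 h and the checkpoint kinase CHEK1 at -2.12 ± 0.12 at 48 h. In PC3 at 24 h 17 were lower and 0 higher (median -0.42), beside 10.3% lower and 9.55% higher among all genes. With median centring 8 were lower and 0 higher. The lowest values there were those of MCM7 of the MCM helicase (-0.97 ± 0.15) and UHRF1, a factor that keeps DNA methylated (-0.80 ± 0.15). In PC3 at 48 h 9 were higher and 5 lower (median 0.05), beside 18.2% higher and 25.1% lower among all genes. The 5 lower lie near that share. With median centring 1 was higher and 5 were lower (median -0.18). CDT1 was at 1.31 ± 0.21 and the helicase subunit MCM2 at 0.58 ± 0.14, while the polymerase subunit POLA1 was at -1.19 ± 0.13 and CDC45 at -0.77 ± 0.17. In PC3 DMSO, 48 h minus 24 h, 25 of them were lower (median -1.22), among them UHRF1 at -2.16 ± 0.15, and in LNCaP DMSO 0 were called (median -0.08). Of all probes 20.0% in PC3 DMSO and 0.202% in LNCaP DMSO were called in either direction.

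Other partners of the complex, 8 genes, gave mixed calls: 1 higher and 3 lower in PC3 at 24 h, 2 and 4 at 48 h, 0 and 3 in LNCaP at 24 h, and 1 and 3 at 48 h. Among all genes 9.55% were higher and 10.3% lower in PC3 at 24 h, 18.2% and 25.1% at 48 h, 8.85% and 9.15% in LNCaP at 24 h, and 17.7% and 17.3% at 48 h. With median centring 1 was lower at 24 h in each line. TFDP1, the DNA-binding partner of E2F proteins, fell in all 4 comparisons, by 0.72 ± 0.09 and 0.82 ± 0.09 in PC3 and by 0.50 ± 0.09 and 0.64 ± 0.09 in LNCaP. MYB, a relative of MYBL2, fell by 1.00 ± 0.13 and 1.64 ± 0.13 in LNCaP, and in PC3 at 48 h it was at -0.37 ± 0.13 with 0 Siomycin arrays and 1 DMSO array above background. The MuvB subunit RBBP4 rose in PC3 at 48 h (0.80 ± 0.13, adjusted p = 4.2e-05) and fell in LNCaP (-0.46 ± 0.13 and -0.54 ± 0.13). E2F5, a repressor E2F, fell in PC3 (-0.49 ± 0.10 and -0.58 ± 0.10) and was at 0.05 ± 0.10 and 0.33 ± 0.10 in LNCaP, where the 48 h value passed. DYRK1A, the kinase of LIN52, rose in PC3 at 48 h (0.43 ± 0.09). TFDP2 rose in PC3 at 24 h (0.68 ± 0.14), MYBL1 fell there (-0.66 ± 0.22, adjusted p = 0.047), and RB1, the retinoblastoma protein, fell in PC3 at 48 h (-0.53 ± 0.15).

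Cyclins, CDKs and their inhibitors, which set whether pocket proteins and FOXM1 are phosphorylated, also gave mixed calls over 13 genes: 2 higher and 3 lower in PC3 at 24 h, 3 and 4 at 48 h, 0 and 5 in LNCaP at 24 h, and 3 and 4 at 48 h. Against the shares of all genes just given, the counts in PC3 at 48 h lie near the background. With median centring 1 was lower in PC3 and 3 were lower in LNCaP at 24 h. CDKN1A, the CDK inhibitor p21, rose in PC3 at 24 h (1.11 ± 0.13) and in LNCaP at 48 h (1.38 ± 0.13), and was at 0.16 in PC3 at 48 h and 0.33 in LNCaP at 24 h, which did not pass. CDKN1B, the inhibitor p27, rose at 48 h in both lines (0.97 ± 0.10 in PC3 and 0.74 ± 0.10 in LNCaP). CDKN1C rose in PC3 (0.81 ± 0.26 and 1.63 ± 0.26). CDKN2B was at -2.60 ± 0.16 in PC3 at 48 h, against DMSO arrays that had themselves risen by 2.46 ± 0.16 since 24 h. CDK2 fell in LNCaP (-1.55 ± 0.13 and -1.35 ± 0.13) and in PC3 at 24 h (-0.55 ± 0.13) and rose in PC3 at 48 h (0.59 ± 0.13), against DMSO arrays that had fallen by 1.70 ± 0.13 since 24 h. CDC25A, the phosphatase that activates it, fell in LNCaP (-1.67 ± 0.16 and -2.31 ± 0.16). CDKN2B rose in LNCaP at 48 h (0.49 ± 0.16), where 3 Siomycin arrays and 1 DMSO array were above background. CCND1 fell in PC3 (-0.63 ± 0.09 and -0.54 ± 0.09) and in LNCaP at 24 h (-0.38 ± 0.09), and CDK6 in PC3 at 48 h (-0.59 ± 0.16).

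Among 7 measured genes reported as substrates or partners of MELK, each comparison called 2 higher and 1 lower. Of all genes at 24 h, 9.55% were higher and 10.3% lower in PC3, and 8.85% and 9.15% in LNCaP. The 1 lower at 24 h lies near these shares. At 48 h both counts lie near the shares of all genes, of which 18.2% were higher and 25.1% lower in PC3 and 17.7% and 17.3% in LNCaP. With median centring 0 were higher at 24 h in either line and 1 was higher at 48 h in each. CDC25B, which is also among the G2 and mitosis genes, fell in all 4, by 0.75 ± 0.09 and 1.21 ± 0.09 in LNCaP. JUN, an AP-1 subunit, rose by 0.45 ± 0.07 and 1.43 ± 0.07 in PC3 and by 0.40 ± 0.07 and 0.90 ± 0.07 in LNCaP. The translation factor EIF4B rose by 0.47 ± 0.08 and 0.37 ± 0.08 in PC3 and by 0.40 ± 0.08 and 0.45 ± 0.08 in LNCaP. ZNF622, PRKDC, MAP3K5 and BCL2L14 were not called, and BCL2L14 was at or below background on most arrays.

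The genes whose levels followed those of MELK most closely were other genes of cell division. Over the 24 arrays, after the mean of each line was subtracted, MELK ILMN_2212909 had its highest Pearson correlations with AURKA (r = 0.985), a mitotic kinase, FBXO5 (0.979), an inhibitor of the anaphase-promoting complex, SMC2 (0.978), a condensin subunit, PRC1 (0.978) and TOP2A (0.977). For FOXM1 ILMN_2344971 they were CDKN3 (0.965), BIRC5 (0.95), YWHAH (0.947), UBE2C (0.942) and PDSS1 (0.941). For MYBL2 they reached only 0.723 (CPED1), followed by SGTA, EPN3, MBOAT1 and ALG9 (0.72 to 0.695), with a probe that was mostly below background. These values describe arrays that share lines, treatments and times, and carry no test. Among the members themselves, MELK and FOXM1 had r = 0.901, MELK and RBL1 0.863, MELK and LIN9 0.846 and MELK and LIN54 0.75. RBL2 correlated negatively with MELK (-0.477), FOXM1 (-0.466), LIN54 (-0.602) and RBL1 (-0.263). The 2 MELK probes correlated with r = 0.98 and the 2 FOXM1 probes with r = 0.91.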

How the data were processed

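Per the labels, total RNA of 24 samples was read on Illumina bead arrays. The deposited scanner table gives, per the file headers, an intensity and a detection p-value per probe and array, not normalized. The authors' processed table holds log2 values, which matched the logged and quantile-normalized intensities with no background correction (largest difference 5.12e-09). The package lumi is named in the submitters' processing notes, with its version not given in the sources used here.

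The intensities were corrected with normexp (offset 16), using the probes with detection p over 0.9 for the background, logged and quantile normalized. On each array, above background meant a detection p under 0.01 together with a signal over the background centre, since between 3215 and 4216 probes per array had a low p while dimmer. The 25215 probes above background on at least 3 arrays were kept. Differences were fitted with limma 3.58.1 in R 4.3.3 over 8 group means, which left 16 residual degrees of freedom, and p-values were adjusted by Benjamini-Hochberg over all kept probes. The number of arrays limits the precision. The steps were tested on simulated data.

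Of 30119 probes in the probe list, 30111 had 1 gene, 8 had several and were not named, and a further 17199 probes on the array were unnamed here. All kept probes of the 10 genes are given. From the lists, the genes named are the 2 called genes with the largest rise and the 2 with the largest fall in each Siomycin comparison, and more of the lists of at most 13 genes. Likeness was taken for the kept probe with the highest mean, naming 5 genes. The members and lists were chosen with earlier results of these data known. Alternatives were other background, offset, normalization, filter, prior and sample choices, the authors' table, the replicate number as a block, each array left out, and the 24 h DMSO arrays as control at 48 h. Same-numbered arrays did not deviate together (r between -0.126 and 0.0236 in 12 pairs, 0 over 0.1), so the main fit has no block. The headers name no slide or scan batch.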

Additional observations from a re-analysis of the deposited data

Results flagged for a closer look

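The following are tested differences between the lines or the times in the effect of Siomycin A, on the log2 scale, by limma with adjusted p under 0.05. Between PC3 and LNCaP at 24 h, as PC3 minus LNCaP, they were 1.18 for MELK ILMN_2212909, 1.16 for MELK ILMN_1731184, 1.35 for LIN54 and -0.64 for RBL2. At 48 h they were 1.44 and 1.65 for the same MELK probes, 1.18 for FOXM1 ILMN_2344971, 1.08 for FOXM1 ILMN_1716400, 0.68 for LIN37, 1.02 for LIN54, 0.66 for RBL1 and -0.81 for RBL2. Between the times, as 48 h minus 24 h, they were 0.53 for MELK ILMN_1731184 in PC3 and -0.60 for FOXM1 ILMN_2344971 in LNCaP. The differences of LIN37 and RBL1 at 48 h and of FOXM1 between the times had adjusted p of 0.048, 0.035 and 0.046 and were lost in 15, 12 and 13 alternatives. Those of RBL2 at 24 h and of MELK ILMN_1731184 between the times (adjusted p = 0.013 and 0.0016) did not pass with median centring (adjusted p = 0.28 and 0.75), nor did that of LIN54 at 48 h (0.12), and that of RBL2 at 24 h did not pass where only the groups compared were fitted (0.06).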

How the results depend on the processing

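Of 3236 values of member probes under 14 other settings, 1 of which drops both arrays in doubt, and with each of the 24 arrays left out in turn, 3011 kept direction and call, 156 lost the call, 67 gained one and 2 reversed. The reversed values were RBL1 in the line difference at 48 h, -0.53 against the 24 h DMSO arrays, and RBL2 in PC3 Siomycin 48 h minus 24 h, -0.53 with median centring. Median centring gave 1801 called probes (2 of them member probes) in PC3 at 24 h against 3792 (5), 6 member probes in PC3 at 48 h against 3, 1721 called probes in LNCaP at 24 h against 3544, 171 for the time difference in LNCaP against 1302, 757 for the line difference at 24 h against 2148, 3 for LNCaP DMSO 48 h minus 24 h against 51, and 1451 for LNCaP Siomycin against 3620. Fits of only the groups compared gave 1098, 514, 1385, 0 and 655 for LNCaP at 24 h, the LNCaP time difference, the line difference at 24 h, LNCaP DMSO and LNCaP Siomycin over time. The replicate block gave 515 for the LNCaP time difference, 1327 for the line difference at 24 h and 13 for LNCaP DMSO over time. It ended 10 member calls and added 0: RBL2 in PC3 at 24 h (adjusted p = 0.061), MELK ILMN_2212909 in PC3 at 48 h (0.087), LIN9 in LNCaP at 48 h (0.11), the RBL2 line difference at 24 h (0.07), the FOXM1 ILMN_2344971 time difference in LNCaP (0.14), LIN52 and RBL2 in LNCaP Siomycin over time (0.079 and 0.11), and PC3 minus LNCaP in DMSO for MELK ILMN_1731184 at 24 h (0.12) and FOXM1 ILMN_2344971 at 24 h and 48 h (0.067 and 0.061). The mean of the kept probes of a gene gave 5953 in PC3 at 48 h against 8987, 5117 for PC3 Siomycin over time against 7765, and 8101 and 8299 for PC3 minus LNCaP in DMSO against 12593 and 13005, where 1 probe per gene gave 8131 and 8339 and probes above background on all arrays 8311 and 8558 (fewer probes tested). Without PC3 Siomycin 48 h array 3 and LNCaP Siomycin 24 h array 1, the LNCaP time difference had 1980 calls and LNCaP DMSO over time 95. For LNCaP DMSO no background correction and the authors' table gave 100, offset 50 gave 88 and a trended prior 84. The 24 h DMSO arrays as control gave 9 member probes in PC3 at 48 h. The median of the MELK partners in LNCaP at 48 h, -0.09, turned to 0.11 without LNCaP Siomycin 48 h array 1 and to 0.10 with the mean of probes, and came to -0.10 without LNCaP DMSO 48 h array 3. Leaving out 1 array at a time gave 2724 to 3204 calls in PC3 and 2691 to 3862 in LNCaP at 24 h, 917 to 1880 for the LNCaP time difference and 21 to 43 for LNCaP DMSO over time. Where not stated, the cause was not tested. Dim probes (MYBL2, RBL1) limit what can be read, and a slide block was not run because the headers name no slides.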
